A study of Homo sapiens with 32 samples.

Results

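Gene expression was compared between A375 cells labelled G579S and A375 cells labelled wild-type, both kept in the solvent DMSO without drug (0 nM) for 6 h. A375 is an established human melanoma line that carries an activating BRAF mutation. The libraries were chosen by their titles alone: 2 libraries of A375 G579S and 2 of A375 wild-type, 4 of the 32 libraries of the series. The series also holds the same A375 cells after OTS964, a small-molecule inhibitor of CDK11, at 100 nM for 6 h, and the lines Cal51, MDA-MB-231 and DLD1 under the same treatments. The design text calls wild-type cells sensitive and G579S cells resistant to inhibition of CDK11. All 4 libraries come from cells grown in DMEM with serum, and no drug was given to either group. The labels do not say how the substitution was made, whether the G579S cells are 1 clone, how many passages separate the lines, or whether replicate libraries stem from cultures grown apart. Edit, clone and passage therefore cannot be told apart here, and the p-values reflect only how these particular samples vary, which may be technical variation.

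CDK11A and CDK11B encode a pair of almost identical kinases that work with the L-type cyclins CCNL1 and CCNL2 in transcription and pre-mRNA splicing. G579S is known as a substitution in CDK11B, in front of the DFG motif of the kinase domain, that keeps OTS964 from inhibiting the kinase. Melanoma cells range from a melanocytic state, led by SOX10 and MITF, to a dedifferentiated state marked by genes such as SOX9, NGFR, AXL and EGFR.

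The stretch of CDK11B that holds the substituted codon is shown because the whole comparison is named after it, and the same stretch of CDK11A is shown because short reads from the pair are hard to separate. Both are reference coding sequence from GENCODE transcripts, 63 bases each, read 5′ to 3′ on the minus strand of GRCh38. The capitals mark the codon that G579S names, in exon 16 of 20 of CDK11B, whose protein has 795 residues, and the matching codon 530 of CDK11A, whose protein has 746. The windows cross an exon junction, so the genomic span is longer than the sequence: chr1:1636969-1637107 for CDK11B and chr1:1704111-1704249 for CDK11A. The sequences are identical at 61 of the 63 bases.
CDK11B: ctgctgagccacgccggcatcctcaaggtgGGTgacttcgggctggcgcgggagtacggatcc
CDK11A: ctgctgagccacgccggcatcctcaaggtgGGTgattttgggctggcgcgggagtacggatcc

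Each of the 4 libraries held between 18559736 and 20770317 estimated reads, of which 87.8% to 88.0% were on transcripts matched to a gene. Levels are given as CPM, the counts scaled to a common library total, after normalization with edgeR's TMM factors, and 14318 genes were tested. Replicates differed by more than counting noise (chi-square per degree of freedom 6.40 in wild-type and 5.68 in G579S), so no library was a copy of another. The median gene differed between replicates by 0.091 on the log2 scale in wild-type and by 0.089 in G579S. The melanocyte genes SOX10, S100A1 and MIA were detected in all 4 libraries, with SOX10 between 583 and 1047 CPM, while the pigment genes TYR and MLANA were at 0 in all 4 and DCT and PMEL did not pass 1.06 CPM. Of the markers of other tissues, CDX1, CDX2, KRT20, VIL1, CDH1, ESR1, ELF5, PTPRC and CD3E were at 0 in all 4 libraries. KRT14, GATA3 and LYZ were detected in all 4, as were CD68 (47.2 and 49.1 CPM in wild-type, 21.3 and 22.0 CPM in G579S) and FOXA1 (8.69 and 8.62 against 1.98 and 2.03), both called lower, and their part in other results was not tested. The 2 DMSO libraries labelled DLD1 wild-type went against their label in SOX10, at 737 and 695 CPM. They also held the epithelial CDH1 at 14.7 and 17.7 CPM and CDX2 at 2.84 and 3.66 CPM, while CDX1 was at 0. These libraries enter here only through the shared estimate of spread.

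In G579S cells, 13 of 24 genes of antigen presentation and 12 of 32 of hypoxia and glycolysis were higher, and 11 of 26 genes of NF-kB and cytokines, 13 of 48 receptor kinases and ligands and 11 of 28 genes of the dedifferentiated melanoma state were lower. These are bulk samples, in which a smaller share of cells with a transcript and less of it per cell cannot be told apart. Of 14318 genes, 1399 (9.77%) passed an adjusted p of 0.05, 629 of them higher in G579S (4.39%) and 770 lower (5.38%). Each list count in this text is to be set beside these shares of 4.39% and 5.38%. The genes behind the shares include some at 0 in all 4 libraries, such as CDH1 and KRT20, which could not be called. Adjusted p here and below is from edgeR's quasi-likelihood test with Benjamini-Hochberg adjustment over all genes tested, and log2 differences are G579S minus wild-type with their standard error (SE). At a change of at least 2-fold, 695 genes were called (4.85%), 283 higher (1.98%) and 412 lower (2.88%). Both G579S libraries lay above both wild-type libraries in 31.6% of all genes tested and below both in 33.6%, 65.2% in all, so groups that do not overlap are common in this comparison. Without the 4 libraries labelled DLD1 wild-type the count was 1679, an alternative chosen after the data were seen. When any 1 of the 4 libraries was left out, the count lay between 749 and 777.

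**Figure D1:**
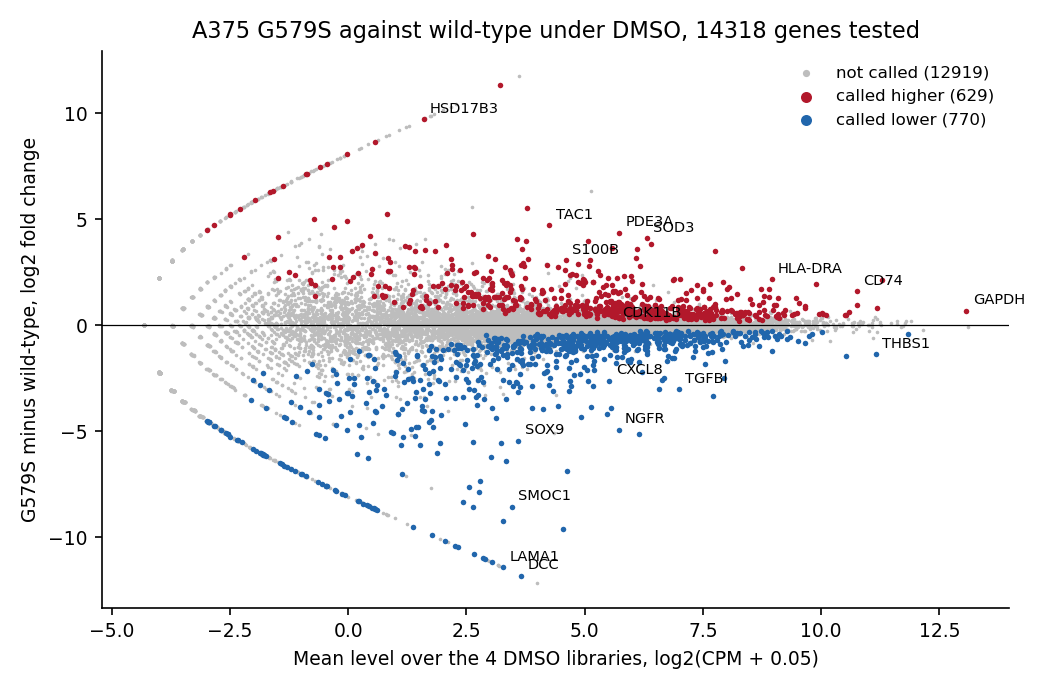
Mean level over the 4 DMSO libraries (x axis, log2 of CPM + 0.05) against the log2 difference, G579S minus wild-type (y axis), for each of the 14318 genes tested. Red points are the 629 genes called higher, blue points the 770 called lower and grey points were not called. The curved edges are genes at or near 0 in one group, whose fitted difference is not a bound, and more called genes lie along the lower edge than along the upper.

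The kinases that give the comparison its name differed little in level. CDK11A was at 27.1 and 29.5 CPM in the wild-type libraries and at 38.8 and 40.8 CPM in the G579S libraries. Both G579S libraries were higher, and the log2 difference of 0.49 ± 0.15 (SE) passed the test narrowly (edgeR adjusted p = 0.0406). That call was lost when any 1 of the 4 libraries was left out, with library totals in place of TMM, with no filter on low counts and with the replicate number as a block. CDK11B was at 49.2 and 47.9 CPM in wild-type and 52.9 and 51.9 CPM in G579S, a log2 difference of 0.11 ± 0.16 (edgeR adjusted p = 0.835). The split of reads between the pair is uncertain, since their sequences are almost the same. Of the partners of CDK11, the cyclin CCNL1 gave -0.07 ± 0.37, the cyclin CCNL2 0.11 ± 0.26 and SAP30BP 0.09 ± 0.10, none of which was called. CDK11A was the 1 gene called among 19 of the CDK11 complex and other transcription kinases.

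All 15 genes most reduced in G579S were at or near 0 in both G579S libraries, whereas most of the 15 most increased were measured in both groups. Each of the 15 named on either side had both G579S libraries on 1 side of both wild-type libraries and at least 5 CPM on average in one group. Among those lower in G579S, the netrin receptor DCC was at 25.9 and 24.5 CPM in wild-type and at 0 in both G579S libraries, at least 163-fold lower by a floor of 3 counts per library (edgeR adjusted p = 1.46e-04). The laminin chain LAMA1 was at 20.7 and 17.8 CPM against 0 and 0, at least 125-fold lower. EPB41L3, a membrane-skeleton protein, was at 16.4 and 16.5 CPM against 0 and 0, at least 106-fold lower. In all of these the 2 wild-type libraries were close to each other and neither G579S library had a count. EPB41L3 was no longer called by DESeq2.

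The other genes with 0 counts in both G579S libraries were the ion channel gene TRPC4, the membrane protein ITM2A, the cancer-testis gene SPANXA2, the transcription factor FOXP1, the inflammasome gene NLRP2, PEAR1, RELCH and CCDC61, with bounds between 32.97-fold and 95.6-fold. FOXP1 was uneven between its wild-type libraries, at 6.43 and 13.5 CPM. RELCH and CCDC61 were not at 0 in G579S cells under OTS964, where they averaged 1.70 and 2.63 CPM, so their 0 under DMSO is uncertain. RELCH lost its call without either G579S replicate, and CCDC61 without wild-type replicate 1 or either G579S replicate and with the replicate block. TRPC4 and SPANXA2 were no longer called by DESeq2. The SPANX genes have near-identical copies and their separate values are uncertain. SPANXB1 was at 49.95 and 42.4 CPM against 0.0509 and 0.0520 (edgeR adjusted p = 2.63e-07). The matricellular gene SMOC1 was at 23.7 and 19.97 CPM against 0 and 0.104, and TM4SF18 and ABTB3, at 13.6 and 11.1 and at 20.1 and 18.6 CPM in wild-type, also had 1 of the 2 G579S libraries at 0. With so few counts in G579S no fold is given for these 4 genes.

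Among the 15 genes most increased in G579S, 2 started from 0 in both wild-type libraries. HSD17B3, an enzyme that makes testosterone, was at 0 in both wild-type libraries and at 5.19 and 6.71 CPM in G579S, at least 37.4-fold higher (edgeR adjusted p = 4.99e-04). GDF1 was also at 0 in wild-type, against 18.00 and 18.8 CPM, but wild-type cells under OTS964 averaged 16.4 CPM and the gene shares a transcript with CERS1, so it is uncertain, and it lost its call without either wild-type replicate. TAC1, the precursor of substance P, was at 1.46 and 1.34 CPM in wild-type and 35.7 and 37.6 in G579S, a log2 difference of 4.71 ± 0.43 (edgeR adjusted p = 1.12e-04). The wild-type libraries had low but measured levels of TAC1, far below both G579S libraries.

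The phosphodiesterase PDE3A was at 4.52 and 5.29 CPM against 103 and 99.2, a log2 difference of 4.36 ± 0.69. SOD3, the extracellular superoxide dismutase, was at 8.49 and 9.07 CPM against 152 and 151 (4.10 ± 0.32, edgeR adjusted p = 3.76e-08). The proteoglycan ACAN rose by 4.08 ± 0.80, its link protein HAPLN1 by 3.57 ± 0.28 and the hemicentin HMCN1 by 3.65 ± 0.29. TFAP2B, a transcription factor of the neural crest, was at 11.3 and 11.2 CPM against 160.1 and 157 (3.82 ± 0.44). The others were CHRDL1, CADM3, BEX4, ENPP2 and the class II genes HLA-DOA and HLA-DQA2. With only the 4 A375 DMSO libraries, CHRDL1 was no longer called. ACAN lost its call without wild-type replicate 2, CADM3 without wild-type replicate 1 and ENPP2 in 3 of the 4 fits that leave out 1 library. CHRDL1 rests on uneven libraries, at 0 and 1.17 CPM in wild-type and 21.1 and 32.6 in G579S, and was no longer called by DESeq2, with the replicate block, without the libraries labelled DLD1 wild-type, or without wild-type replicate 1 or either G579S replicate.

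Counted over all genes tested, 19 genes were at 0 in both G579S libraries with at least 5 CPM in wild-type, and 10 were at 0 in both wild-type libraries with at least 5 CPM in G579S. Of the 19, only those named above were called, and of the 10, only GDF1 and HSD17B3. Of the 19, 15 stayed under 0.5 CPM in the OTS964 libraries of G579S cells, and of the 10, 5 stayed under 0.5 CPM in those of wild-type cells. Some that stayed low were also at 0 in the treated cells of the other genotype, so for them this does not separate the genotypes. A 0 can be a failed estimate, and 46 genes in wild-type and 43 in G579S were at 0 in one replicate with at least 5 CPM in the other. With a limit of 0.5 CPM in place of 0, 52 genes were near 0 in G579S only and 13 in wild-type only.

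Genes of antigen presentation were higher in G579S. Of 24 tested members, 13 rose and 0 fell, against 4.39% higher and 5.38% lower over all genes, with a median log2 difference of 0.76. Medians stay the same, or are given as a second value, when genes at 0 in a group are set to their bound. Class I molecules show peptides from inside the cell and class II molecules, with the chaperone CD74, peptides taken up from outside. Promoter windows of a class II and a class I member are shown because this list had the largest share of members called higher of the 31 lists. Each is 70 bases of the gene's own strand from RefSeq promoters on GRCh38.p14, and the capitals mark CTGATTGG, a Y-box sequence of class II promoters, or its reverse complement. In HLA-DMA, at chr6:32953140-32953209 on the minus strand, the motif starts 82 bases before the annotated start of the gene. In HLA-B, at chr6:31357196-31357265 on the minus strand, the match is the reverse complement and starts 56 bases before. It is a match of letters and is not taken to be the Y box of HLA-B.
HLA-DMA: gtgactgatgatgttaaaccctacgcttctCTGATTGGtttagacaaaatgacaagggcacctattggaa
HLA-B: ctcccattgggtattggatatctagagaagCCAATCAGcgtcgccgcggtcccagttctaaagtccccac

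On either strand, 6 of the 20 members with a promoter in the table held CTGATTGG in their 300 bases, against 3.97% of all 35116 promoters, which is a description and not a site. HLA-B was at 94.8 and 96.1 CPM in wild-type and 393 and 390.0 CPM in G579S, a log2 difference of 2.04 ± 0.16 (edgeR adjusted p = 3.54e-08). HLA-C was at 115 and 126 CPM against 394 and 396 (1.71 ± 0.14). The groups were far apart for both, and both replicates of a group were close. HLA genes are variable and alike, so the split of reads between HLA-B and HLA-C is uncertain.

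Class II genes were also called higher. HLA-DRA was at 179 and 181 CPM against 832 and 798 (2.18 ± 0.16, edgeR adjusted p = 6.62e-08). CD74 was at 868 and 862 CPM against 2579 and 2650.3 (1.60 ± 0.18). HLA-DPB1 (2.76 ± 0.23) and HLA-DPA1 (1.82 ± 0.19) rose as well. CIITA, the master activator of class II genes, was at 34.7 and 39.9 CPM against 98.6 and 119 (1.54 ± 0.40, edgeR adjusted p = 0.0169), a call lost when any 1 of the 4 libraries was left out. B2M, the light chain of class I molecules, was at 417 and 405 CPM against 528 and 511, and its difference of 0.34 ± 0.11 did not pass the test (edgeR adjusted p = 0.0689). Leaving out 1 library at a time left between 9 and 11 members called higher.

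**Figure D2:**
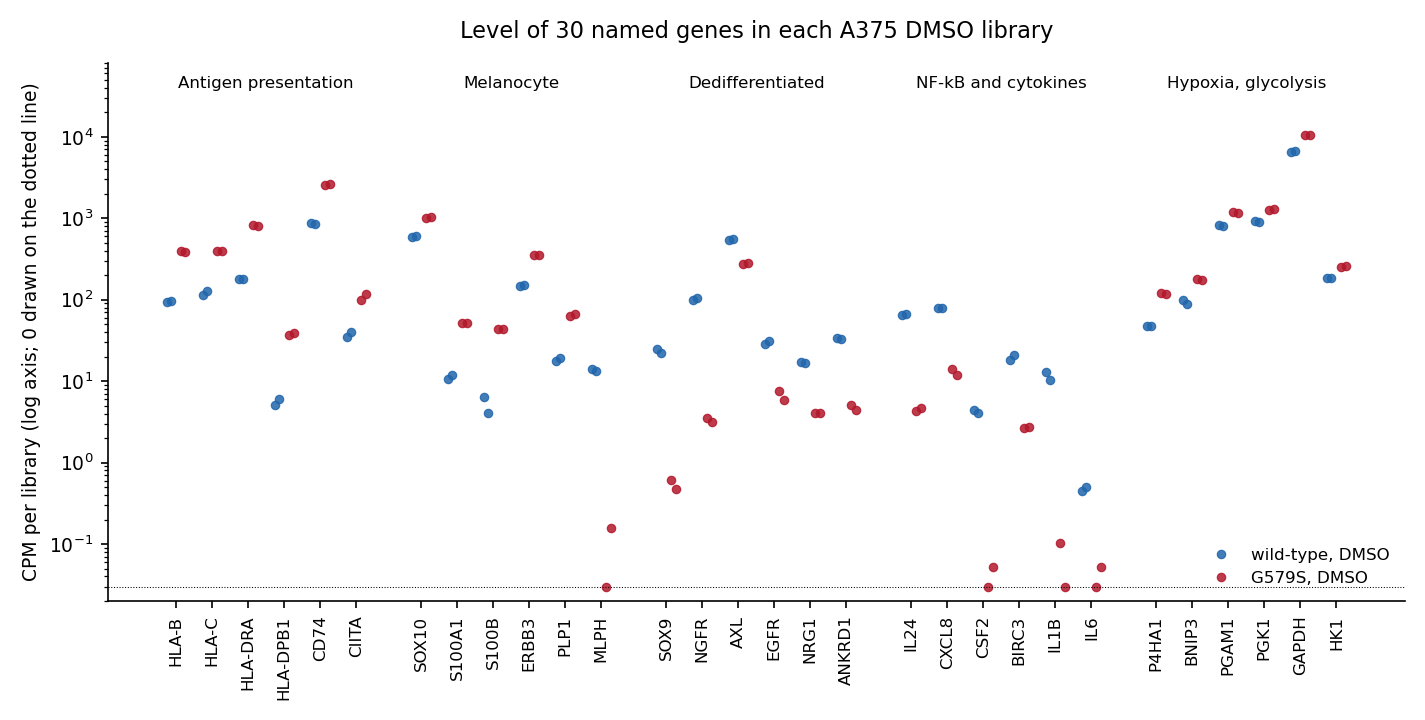
CPM of 30 named genes (x axis, 6 from each of 5 gene lists) in each of the 4 A375 DMSO libraries (y axis, log scale), with wild-type libraries in blue and G579S libraries in red and a value of 0 drawn on the dotted line. The 2 libraries of a group nearly coincide for most genes. All 6 antigen presentation genes and all 6 glycolysis and hypoxia genes are higher in G579S. All 6 genes of NF-kB and cytokines and all 6 dedifferentiation genes are lower. Of the 6 melanocyte genes, MLPH is lower and the others are higher. Each gene drawn was called, so the shared direction within a list follows in part from the choice. Members that were not called, such as B2M and VEGFA, are not drawn.

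Genes that respond to interferon were more often lower than higher. Of 41 tested, 2 rose and 8 fell, with a median of -0.47 (-0.44 at the bounds). IFI44 was at 22.4 and 21.1 CPM against 6.56 and 5.56 (-1.84 ± 0.22, edgeR adjusted p = 1.06e-04). HERC6 (-1.38 ± 0.28), the RNA sensor RIGI (-1.18 ± 0.26) and the transcription factor IRF1 (-1.01 ± 0.23) were also lower. The members that rose were the membrane protein IFITM1, at no more than 1.07 CPM in any of the 4 libraries, and the guanylate-binding protein GBP2 (1.84 ± 0.41). ISG15 (-0.11 ± 0.20) was not called. With 1 library dropped at a time there were between 3 and 6 members called lower, and RIGI, IRF1, IFITM1 and GBP2 each lost their call in at least 1 of those fits.

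Genes of melanocyte differentiation were more often higher than lower. Of 24 tested, 6 rose and 2 fell, with a median of 0.34. SOX10, the transcription factor of the lineage, was at 583 and 600.4 CPM in wild-type and 1019 and 1047 CPM in G579S (0.80 ± 0.25, edgeR adjusted p = 0.0449), a call lost when any 1 of the 4 libraries was left out, with library totals, with no filter and with the replicate block. S100A1 was at 10.8 and 12.02 CPM against 51.5 and 51.1 (2.17 ± 0.28, edgeR adjusted p = 4.68e-05). The calcium-binding proteins S100A1 and S100B and the receptor ERBB3 kept all G579S values well above all wild-type values. S100B was at 6.38 and 4.06 CPM against 43.2 and 43.6 (3.05 ± 0.42). ERBB3 was at 149 and 151 CPM against 359 and 355 (1.25 ± 0.19). MITF overlapped between the groups, at 10.2 and 17.2 CPM against 13.8 and 13.3, with a difference of -0.02 ± 0.34 that was not called. The members that fell were MLPH, which links pigment granules to the cytoskeleton, at 14.1 and 13.4 CPM against 0 and 0.156 (edgeR adjusted p = 2.39e-05), and the cell-cycle kinase CDK2 (-0.38 ± 0.11), whose call was lost when any 1 library was left out. Those fits left 3 or 4 members called higher and 1 called lower.

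The list of neural crest and dedifferentiated melanoma genes went the other way. Of 28 tested, 11 fell and 3 rose, with a median of -0.65. The transcription factor SOX9 was at 24.9 and 22.4 CPM in wild-type and 0.610 and 0.468 CPM in G579S (-5.44 ± 0.36, edgeR adjusted p = 5.83e-09). The nerve growth factor receptor NGFR was at 100.2 and 104 CPM against 3.56 and 3.17 (-4.92 ± 0.54, edgeR adjusted p = 4.29e-06). Both were far lower in each G579S library than in either wild-type library. The receptor kinase AXL was at 542 and 555 CPM against 277 and 281 (-0.98 ± 0.18). ANKRD1 (-2.82 ± 0.23), the ERBB ligand NRG1 (-2.04 ± 0.29) and the ectonucleotidase NT5E (-0.59 ± 0.10) were lower too. Fits without 1 of the libraries left between 8 and 9 members called lower and 1 called higher.

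Of 26 genes of NF-kB and cytokines, 11 were called lower (42.3%) and 0 higher, with 14 lower and 2 higher at an unadjusted p under 0.05 and a median of -0.72. NF-kB is a transcription factor family that drives inflammatory genes. Promoter windows of the chemokine CXCL8 and of IL6 are shown because this list had the largest share of members called lower of the 31 lists. Each is 70 bases of the gene's own strand from the same table and build, and the capitals mark GGNNTTTCC. In CXCL8, at chr4:73740448-73740517 on the plus strand, the motif starts 91 bases before the annotated start, and in IL6, at chr7:22727098-22727167 on the plus strand, 72 bases before.
CXCL8: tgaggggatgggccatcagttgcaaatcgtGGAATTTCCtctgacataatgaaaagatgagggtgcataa
IL6: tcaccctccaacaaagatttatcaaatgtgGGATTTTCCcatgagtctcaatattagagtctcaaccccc

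On either strand, 15 of the 23 members with a promoter in the table held GGNNTTTCC in their 300 bases, against 6.26% of all promoters. This is a description and not a site, and the list was chosen for NF-kB, so a high share follows from that choice. Members with the motif include genes that were not called lower, such as NFKBIA and TNFAIP3. CXCL8, which attracts neutrophils, was at 78.4 and 79.8 CPM in wild-type and 13.9 and 12.01 CPM in G579S (-2.61 ± 0.35, edgeR adjusted p = 4.09e-05). IL24 was at 65.1 and 65.9 CPM against 4.32 and 4.63 (-3.87 ± 0.37, edgeR adjusted p = 4.05e-06). IL1B was at 13.02 and 10.3 CPM against 0.102 and 0 (edgeR adjusted p = 3.71e-04). Every G579S library lay far below both wild-type libraries for these 3 cytokines. CSF2, at 4.47 and 4.06 CPM against 0 and 0.0520, CSF1 (-0.91 ± 0.13) and the apoptosis inhibitor BIRC3 (-2.86 ± 0.42) fell as well. IL6 itself was low throughout, at 0.452 and 0.501 CPM against 0 and 0.0520 (edgeR adjusted p = 0.00479). Leaving out 1 library at a time left between 7 and 8 members called lower, and IL6 lost its call without G579S replicate 1.

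Receptor tyrosine kinases and their ligands were also shifted down, with 13 of 48 lower and 6 higher (median -0.26, or -0.18 at the bounds). TGFA, a ligand of EGFR, was among those higher, and other ligands were among those lower. Amphiregulin (AREG) was at 17.2 and 16.1 CPM against 0.509 and 1.09 (-4.37 ± 0.46, edgeR adjusted p = 4.92e-06). HBEGF was at 32.6 and 31.7 CPM against 10.4 and 9.77 (-1.67 ± 0.25), and PDGFA at 10.5 and 10.4 CPM against 1.27 and 1.35 (-2.98 ± 0.39). The receptors did not move in 1 direction. EGFR was at 28.9 and 31.2 CPM against 7.48 and 5.93 (-2.16 ± 0.37) and EPHA2 at 711 and 675 CPM against 306 and 297 (-1.20 ± 0.14), while ERBB3 rose as given above.

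Of 32 targets and feedback genes of the ERK pathway, which BRAF drives in this line, 4 fell (12.5%, against 5.38% of all genes) and 1 rose, with a median of -0.04. The phosphatase DUSP6 was at 179.5 and 185 CPM against 166 and 175 (-0.10 ± 0.16) and was not called. The feedback inhibitor SPRY4 was at 71.96 and 70.4 CPM against 215 and 199.7, groups that do not overlap, but its difference of 1.54 ± 0.93 was not called (edgeR adjusted p = 0.403). HMGA2 (-1.67 ± 0.20), cyclin D1 (CCND1, -0.52 ± 0.08) and PHLDA1 (-0.51 ± 0.13) were lower beside EPHA2, and TRIB2 (0.70 ± 0.17) was higher. PHLDA1 was not called when any 1 of the 4 libraries was left out, and TRIB2 in 3 of those 4 fits.

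Of 30 genes of the TGF-beta and BMP pathway, 7 fell and 2 rose (median -0.33, or -0.27 at the bounds). The secreted FSTL1 was at 39.95 and 37.6 CPM against 16.1 and 16.9 (-1.23 ± 0.14, edgeR adjusted p = 5.94e-06), and the BMP antagonist NOG at 4.37 and 3.39 CPM against 0.305 and 0.104 (-4.20 ± 0.61). LTBP2, which belongs to the family that stores latent TGF-beta (-1.80 ± 0.25), and the inhibitory SMAD7 (-0.64 ± 0.11) were lower. The activin antagonist FST was higher, at 162 and 158 CPM against 389 and 386 (1.28 ± 0.20).

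Mesenchymal and matrix genes changed in both directions, with 12 of 45 lower and 6 higher. TGFBI, a secreted protein induced by TGF-beta, was at 222 and 229 CPM against 28.3 and 27.03 (-3.03 ± 0.23, edgeR adjusted p = 3.54e-08). Thrombospondin 1 (THBS1) was at 3231 and 3339 CPM against 1287 and 1300.0 (-1.34 ± 0.15). TIMP3, an inhibitor of matrix proteases, went the other way, at 1176 and 1200.2 CPM against 2239.6 and 2300.3 (0.93 ± 0.10, edgeR adjusted p = 5.06e-06). The caveolin CAV1 (-1.29 ± 0.10) and S100A4 (-2.65 ± 0.29) fell and the fibulin FBLN1 (2.52 ± 0.27) rose. Vimentin (VIM) gave 0.18 ± 0.10 and was not called. Fibronectin (FN1) was uneven within the groups, at 11.96 and 0.612 CPM against 1.07 and 4.52, and was not called. With 1 library dropped at a time there were 5 or 6 members called lower.

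Among 32 integrins and adhesion genes 6 rose and 5 fell. The heparan sulfate proteoglycans split: SDC2 was at 11.8 and 14.4 CPM against 69.4 and 64.2 (2.35 ± 0.15, edgeR adjusted p = 4.25e-09), and SDC4 at 171 and 166 CPM against 78.98 and 74.96 (-1.13 ± 0.14). The adhesion molecules ALCAM (-1.68 ± 0.20) and L1CAM (-0.996 ± 0.16) fell, and the tight-junction protein CLDN1 (1.73 ± 0.31) and the protocadherin PCDH1 (1.06 ± 0.20) rose. The integrin chain ITGB1 was not called (0.15 ± 0.12). Fits without 1 of the libraries left 3 members called higher and 4 lower.

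Genes of hypoxia and glycolysis were higher in G579S, with 12 of 32 called higher (37.5%), 0 lower and a median of 0.48 (0.44 at the bounds). GAPDH, a central glycolytic enzyme, was at 6593 and 6638 CPM in wild-type and 10672 and 10559 CPM in G579S (0.68 ± 0.12, edgeR adjusted p = 5.06e-04). PGK1 was at 925 and 894 CPM against 1265 and 1305 (0.50 ± 0.08), and PGAM1 at 815 and 799 CPM against 1179.6 and 1165 (0.54 ± 0.08). The differences in these enzymes were small and uniform, with no overlap between groups. P4HA1, which hydroxylates collagen, was at 46.9 and 47.5 CPM against 119.9 and 118 (1.33 ± 0.14). The mitophagy receptor BNIP3 (0.92 ± 0.11) and hexokinase 1 (HK1, 0.47 ± 0.09) rose, and VEGFA, a classical hypoxia target, gave -0.10 ± 0.22 and was not called. Leaving out any 1 library left 7 members called, and 15 were called when the 4 libraries with the DLD1 wild-type label were dropped.

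Of 23 metallothioneins and targets of the oxidative-stress factor NRF2, 7 fell and 2 rose. The cystine transporter SLC7A11 was at 78.3 and 78.8 CPM against 23.3 and 22.8 (-1.77 ± 0.29, edgeR adjusted p = 2.98e-04). The quinone reductase NQO1 rose, at 353 and 351 CPM against 688 and 676 (0.95 ± 0.17). Heme oxygenase (HMOX1, -1.21 ± 0.34), thioredoxin reductase (TXNRD1, -0.64 ± 0.13) and GCLM (-0.73 ± 0.19), a subunit of the enzyme that starts glutathione synthesis, were lower. AKR1C2 was higher and AKR1C1 lower, but the pair is near-identical and the split of their reads is uncertain. Leaving out 1 library at a time left 3 members called lower, and HMOX1 and GCLM lost their call in each of those 4 fits. Of 30 genes that ATF4 or the unfolded protein response controls, 4 rose, among them ASNS (0.81 ± 0.13), CRELD2 (0.88 ± 0.17) and HYOU1 (0.42 ± 0.09), and 4 fell, among them CHAC1 (-1.81 ± 0.47). CHAC1 lost its call in each fit that leaves out 1 library, and those fits left 1 member called lower and 2 to 4 higher. ATF4 itself (-0.35 ± 0.11) was not called.

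Among 27 apoptosis regulators 5 fell and 0 rose. BCL2L1, whose main product protects from apoptosis, was at 59.8 and 51.2 CPM against 18.4 and 16.4 (-1.68 ± 0.23, edgeR adjusted p = 5.64e-05), and PMAIP1, which promotes it, at 57.5 and 54.2 CPM against 28.8 and 26.4 (-1.02 ± 0.18). The members that fell therefore include both protective and death-promoting genes. Of 29 p53 targets, 3 fell and 1 rose. CDKN1A, the best known of them, gave 0.13 ± 0.14 and was not called. Of 27 cancer-testis antigens 6 fell and 0 rose. MAGEA1 was at 6.88 and 5.51 CPM against 0.102 and 0.416 (-4.55 ± 0.48) and MAGEC1 at 5.28 and 5.84 CPM against 0.102 and 0.104 (-5.66 ± 0.94). Reads of the MAGE, GAGE and SPANX families are shared among copies, so single members are uncertain.

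Of 34 core spliceosome genes 4 fell (11.8%, against 5.38% of all genes) and 0 rose, the SF3 subunits SF3B2 (-0.28 ± 0.06) and SF3A3 (-0.25 ± 0.08), SNRPD1 (-0.54 ± 0.15) and SF1 (-0.34 ± 0.10). With any 1 library left out, at most 1 of them remained called. SF3B1, a substrate of CDK11, gave -0.13 ± 0.11 and was not called. Of 19 SR proteins and splicing kinases, 0 were called in either direction by edgeR, 2 had an unadjusted p under 0.05 (both lower), DESeq2 called 1 lower, and the fit of the 4 DMSO libraries alone called 7 lower and 1 higher. Cell cycle and mitosis had 4 of 41 lower and 1 higher, DNA replication 5 of 32 lower and 2 higher, homologous recombination 1 of 28 lower and replication-dependent histones 1 of 32 lower and 2 higher. Over all genes tested 4.39% were higher and 5.38% lower. With any 1 library left out, 1 gene was called lower in cell cycle and mitosis and 1 in DNA replication. In the remaining lists the members called higher and lower were 1 and 2 of 30 for cholesterol synthesis, 0 and 4 of 21 for heat shock, 1 and 3 of 29 for drug efflux, 3 and 3 of 35 for the Wnt pathway and 2 and 1 of 37 for HOX genes. Leaving out 1 library left 2 or 3 lower for heat shock, 1 or 2 lower for drug efflux and 2 lower for the Wnt pathway. Among markers of other tissues they were 1 and 1 of 14 for colorectal epithelium, 0 and 3 of 13 for breast epithelium and 0 and 2 of 9 for immune and endothelial cells.

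**Figure D3:**
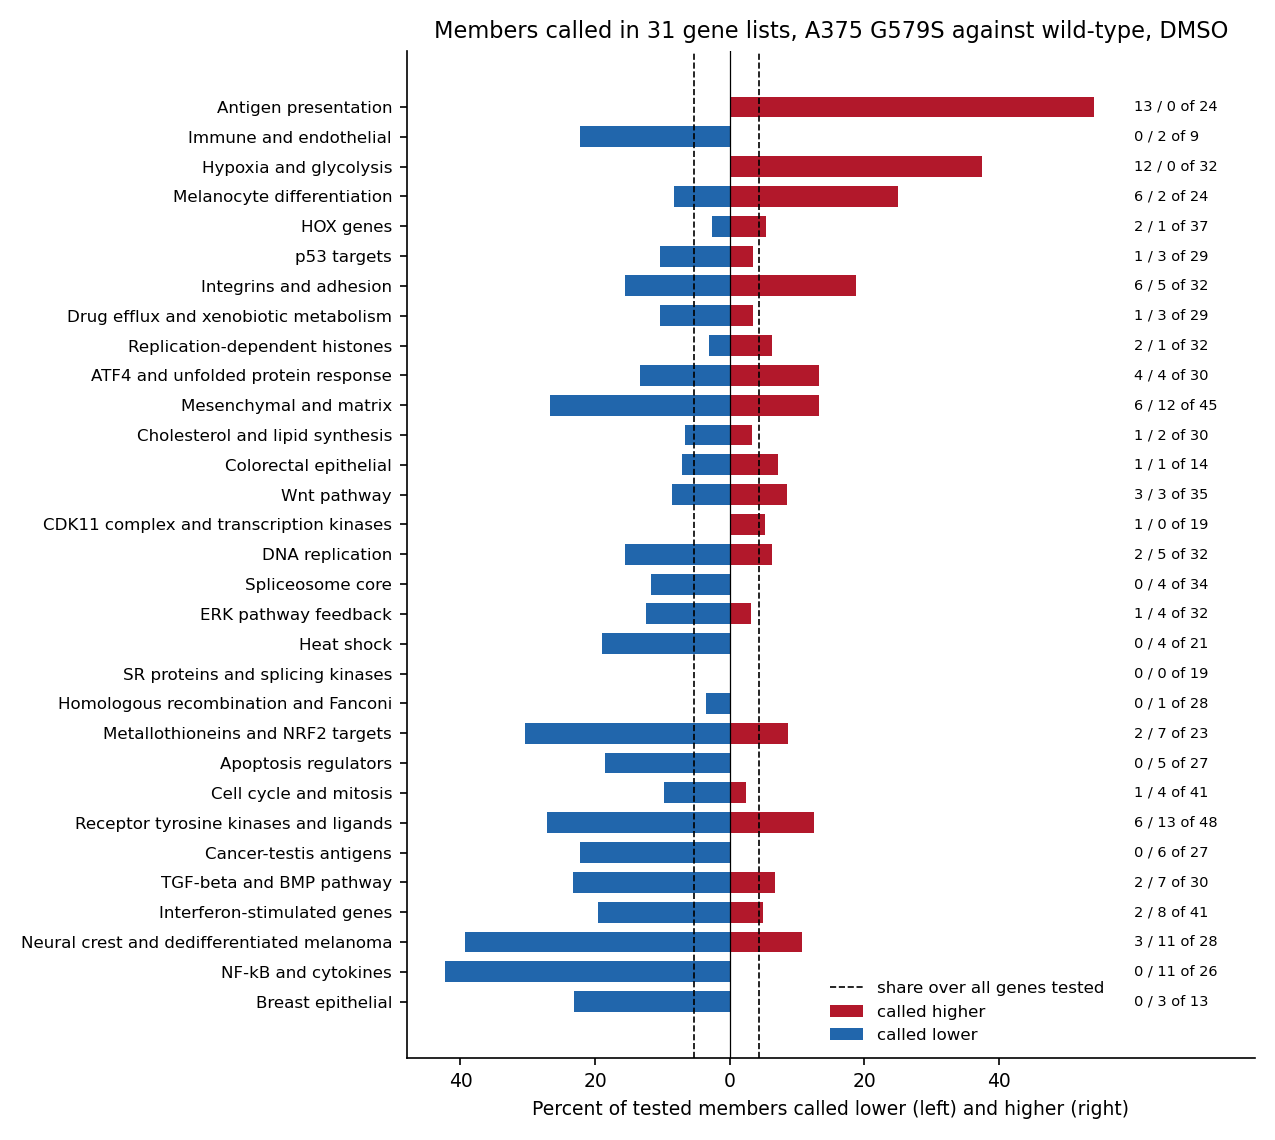
Percent of tested members called higher (red, right) and lower (blue, left) in G579S for 31 gene lists, ordered by their median log2 difference, with the counts at the right (higher / lower of tested). Dashed lines are the shares over all genes tested, 4.39% higher and 5.38% lower. Antigen presentation and hypoxia and glycolysis reach farthest right, and NF-kB and cytokines and the dedifferentiation list farthest left.

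Transcript usage, the share of a gene's reads given to each of its transcripts, differed in 4 of 7052 genes (0.0567%) by edgeR's diffSpliceDGE with Simes' method and Benjamini-Hochberg adjustment. They were the cytoskeletal SEPTIN9, the caveolin CAV2, CALU, a calcium-binding protein of the secretory pathway, and the mitochondrial CLPB. In each of the 4 a single transcript was counted in both wild-type libraries and was at 0 in both G579S libraries. For CAV2 that transcript was at 32.5 and 30.5 CPM in wild-type, counted over the transcripts tested, and for CLPB at 17.1 and 17.0. For SEPTIN9 it was uneven, at 37.0 and 5.91 on the same scale, and for CALU it was at 5.79 and 10.2. Another CALU transcript, not called by itself, was the mirror of this, at 0 in both wild-type libraries and at 7.5 and 7.2 in G579S. Whether reads moved between these CALU entries was not tested. The whole genes SEPTIN9, CALU and CLPB were not called, whereas CAV2 fell by 1.13 on the log2 scale. Leaving out 1 library at a time gave between 2 and 8 genes, and the 8 A375 libraries alone gave 21. Transcript values are estimates, and the read assignment behind a transcript at 0 was not tested.

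The same cells had been sequenced after OTS964, in 4 other libraries that share none with the DMSO comparison. A difference between the treated groups also holds the change of each genotype with the drug, so it is not a plain repeat of the difference under DMSO. There, G579S differed from wild-type in 7048 of 14318 genes (49.2%), with 3720 higher (26%) and 3328 lower (23.2%). With library totals in place of TMM that split was 4717 higher and 2098 lower. Of the 283 genes called at least 2-fold higher under DMSO, 210 (74.2%) were called higher under OTS964 too and 5 were called lower. Of the 412 called at least 2-fold lower, 323 (78.4%) were called lower again and 14 higher. Of the 15 most reduced genes 13 stayed under 1 CPM in the treated G579S libraries, and of the 15 most increased 14 stayed above treated wild-type, GDF1 being the exception.

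Named genes gave these values in the treated cells. DCC was at a mean of 46.4 CPM in wild-type and 0 in G579S under OTS964, and TAC1 at 2.18 and 27.8 CPM. CXCL8 averaged 378 CPM in treated wild-type cells and 11.8 CPM in treated G579S cells, a log2 difference of -5.00. For HLA-DRA the treated means were 339 and 847 CPM, a log2 difference of 1.32 (edgeR adjusted p = 1.90e-06). B2M, not called under DMSO, was lower in treated G579S than in treated wild-type cells (-0.70 on the log2 scale, edgeR adjusted p = 3.88e-05), and GAPDH was not called there (-0.22, edgeR adjusted p = 0.120). From DMSO to OTS964 the mean of B2M went from 411 to 934 CPM in wild-type and from 520 to 576 CPM in G579S. That of GAPDH went from 6616 to 13070 CPM in wild-type and from 10616 to 11187 CPM in G579S. Antigen presentation as a list had 11 higher and 8 lower under OTS964, and hypoxia and glycolysis 8 higher and 9 lower.

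**Figure D4:**
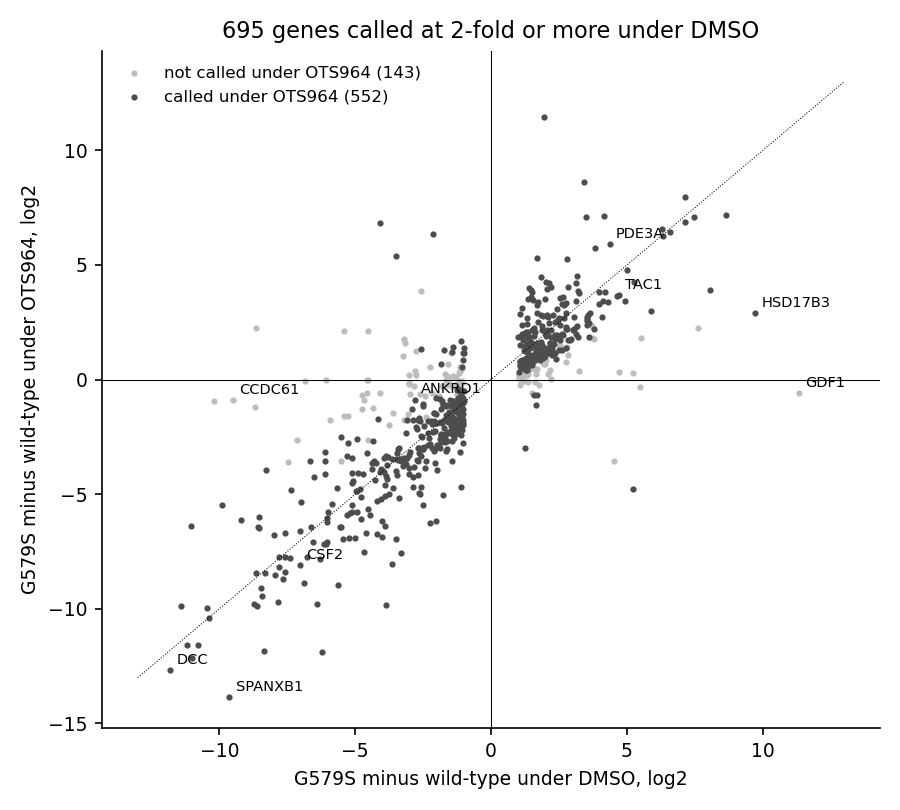
Log2 difference, G579S minus wild-type, under DMSO (x axis) and under OTS964 (y axis) for the 695 genes called at 2-fold or more under DMSO; the groups on the axes share no library. Dark points (552) were also called under OTS964 and grey points (143) were not, and the dotted line marks equal differences. Most points lie in the lower left and upper right of the plot, and GDF1 and CCDC61 lie near 0 on the y axis.

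Cells labelled G579S were also compared with wild-type cells in the lines Cal51 and MDA-MB-231. Edit, clone and passage cannot be told apart in those lines either, so they are no reference for the substitution alone. Of the 283 genes at least 2-fold higher in A375, 63 (22.3%) were called higher and 22 lower in Cal51, where 17% of all genes were called, 10.3% higher and 6.74% lower, and 22 were called higher and 32 lower in MDA-MB-231, where 7.3% were called, 2.74% higher and 4.55% lower. Of the 412 lower genes, 35 were called lower and 73 higher in Cal51, and 50 lower and 23 higher in MDA-MB-231. The difference itself was tested by the A375 difference minus the mean of the differences in Cal51 and MDA-MB-231, and 1271 genes passed (8.88%), 521 higher in A375 (3.64%) and 750 lower (5.24%). It passed in the same direction for 136 of the 283 (48.1%) and for 260 of the 412 (63.1%). The A375 difference that chose these genes is a term of that test, so these shares follow in part from the choice. For 134 of the 695 genes the test says little, since the gene was at 0 in every DMSO library of Cal51 or of MDA-MB-231.

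Genes whose A375 difference stood apart include SOX9 (-5.38 on the log2 scale, edgeR adjusted p = 3.62e-08), NGFR (-5.21), CXCL8 (-2.34), BCL2L1 (-1.88) and SOD3 (3.21). HLA-B (1.35) and HLA-C (1.03) passed as well, although both were also called higher in Cal51 G579S cells, by 1.54 and 1.31, and the antigen presentation list had a median of 0.93 there and -0.31 in MDA-MB-231. By contrast HLA-DRA (-0.03, edgeR adjusted p = 0.851) and CD74 (0.27) did not, and HLA-DRA gave a log2 difference of 5.70 in Cal51 and -1.29 in MDA-MB-231. Of the hypoxia and glycolysis list 13 of 32 members passed with a higher difference in A375, GAPDH among them (0.72). CDK11B passed with a negative value (-1.34), and its difference was 3.43 in MDA-MB-231 and -0.54 in Cal51.

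The differences were not spread evenly along the chromosomes. Tested genes were ordered by their place in a human RefSeq gene table, and a run was made of windows of 25 neighbours whose median log2 difference lay 0.4 or more from that of all genes. This is a description with no test. There were 24 runs, 9 higher and 15 lower in G579S, that held 8.56% of the ordered genes and 21.7% of the called ones. Runs are made of large differences, so the higher share of called genes follows from how they are made. With only genes of at least 5 CPM, a choice made after the data were seen, there were 13 runs, 6 higher and 7 lower.

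The longest run had 160 neighbouring genes of chromosome 18, from PRELID3A to ADNP2, with a median log2 difference of -0.46. In it 137 genes had a fitted difference below 0 and 36 were called lower, led by FHOD3, the motor protein MYO5B and the tRNA synthetase NARS1. The 137 include some genes whose difference is 0 but for rounding. Here and below, the genes that lead a run are those with the smallest p, not the largest difference. On chromosome 7, 103 genes from VPS50 to RASA4 were higher (median 0.69, 36 called higher, led by the actin regulator ARPC1A, BAIAP2L1 and PDAP1), and farther along 128 genes from KLHDC10 to DYNC2I1 were lower (median -0.48, 40 called lower, led by CPA4, PRKAG2 and PODXL). In both lower runs 0 genes were called higher. The middle 50% of the genes lay between -0.89 and -0.13 in the run of 160, between 0.21 and 0.96 in that of 103 and between -0.78 and -0.05 in that of 128.

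Other long runs were lower in G579S: 73 genes from FAM110C to PTRHD1 (median -0.51, led by the polyamine enzyme ODC1, RHOB and SDC1), 61 from BAD to DRAP1 (-0.50, led by CDCA5, MRPL49 and DPF2), 58 from MMP7 to REXO2 (-0.63, or -0.56 at the bounds, led by IL18, DLAT and SDHD) and 86 from UBOX5 to ACSS1 (-0.41, led by JAG1, FERMT1 and SEC23B). The class II genes lie in a higher run of 38 genes from C4B to WDR46, with a median of only 0.22. Of these 38 genes, 14 were called higher, led by HLA-DRA, HLA-DPB1 and HLA-DPA1, and 2 were called lower. The fitted difference was above 0 for 25 of them and below 0 for 13. With only genes of at least 5 CPM this run was not found. In treated A375 cells the 3 long runs of chromosomes 7 and 18 had medians of -0.45 (PRELID3A to ADNP2), 0.55 (VPS50 to RASA4) and -0.23 (KLHDC10 to DYNC2I1). In Cal51 and MDA-MB-231 the medians of these 3 runs lay between -0.12 and 0.13. With genes at 0 set to their bound, the medians of the 3 runs under DMSO were -0.45, 0.67 and -0.44 in the same order. DNA was not measured in this series, and copy number in the 2 A375 lines was not tested.

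**Figure D5:**
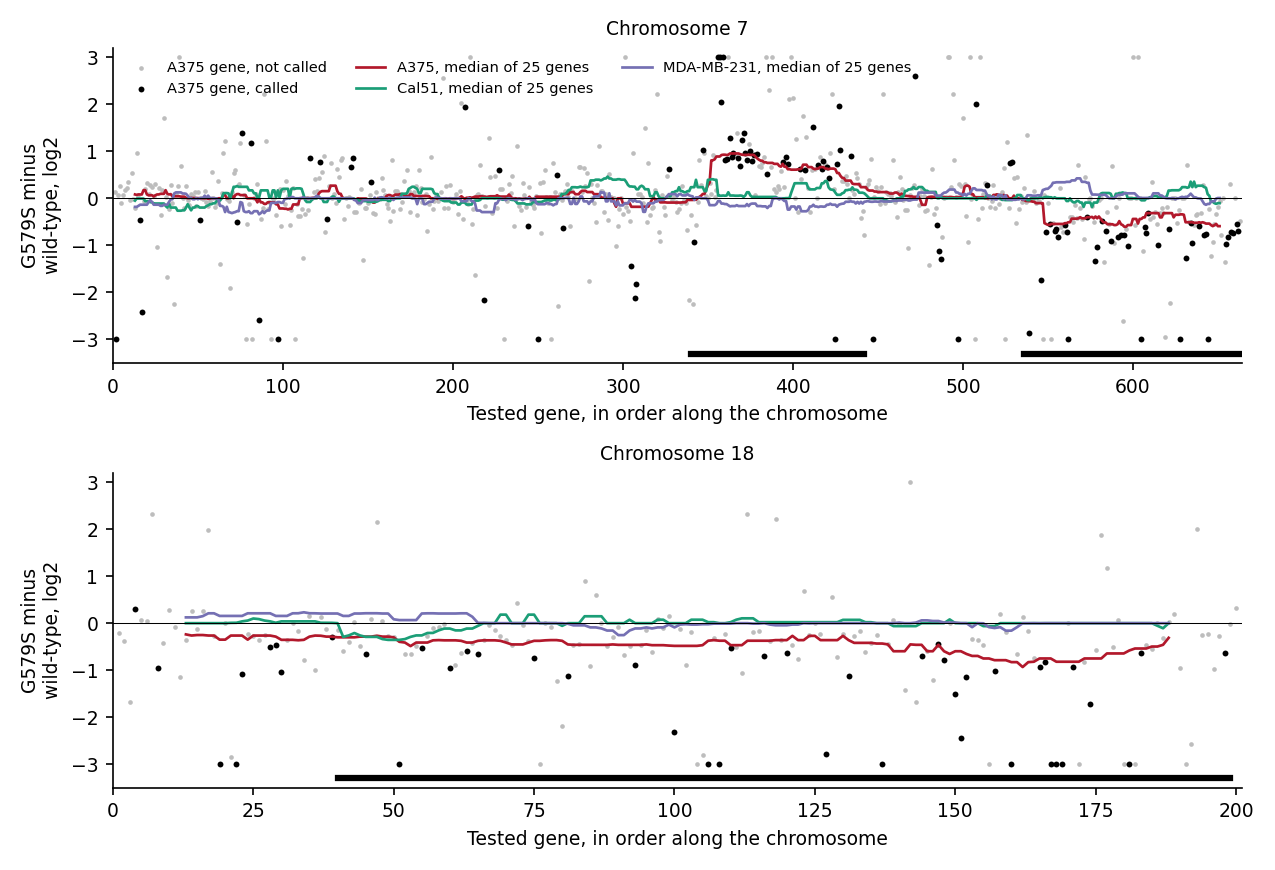
Log2 difference of each tested gene under DMSO (y axis; grey, not called; black, called; values beyond 3 drawn at 3) in its order along chromosomes 7 and 18 (x axis, gene rank), with the median of 25 genes in A375 (red), Cal51 (green) and MDA-MB-231 (purple) and black bars under the runs. The red line steps up at VPS50 to RASA4 and down at KLHDC10 to DYNC2I1, and lies below 0 along the run of 160 genes, while the green and purple lines lie near 0 for most of each run and leave it in places, as far as 0.42 for MDA-MB-231 in the run from KLHDC10 and -0.36 for Cal51 in the run of 160.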

How the data were processed

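RNA-seq of polyadenylated RNA was deposited for 32 libraries in 16 groups of 2, and genotype, drug and line were taken from the titles. The deposited values used here are estimated counts per transcript, in tables of the layout that salmon writes, per the file headers. The tables also hold TPM as deposited, per the file headers, used only in an alternative. The quantification settings are not given in the sources used here. Per the submitters' processing notes the builds are GRCm38 and mm10, mouse builds, although the transcript identifiers are human RefSeq. No coordinate comes from the authors' files.

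Of 87398 transcript identifiers, 42587 (48.7%) matched a human RefSeq gene table, 36272 of 36585 curated and 6315 of 31064 predicted ones. The 19749 identifiers that are bare numbers were not used. Estimated counts were summed to 18853 genes and rounded. edgeR 4.0.16 in R 4.3.3 fitted all 32 libraries in 1 quasi-likelihood model (TMM, filterByExpr, 16 residual degrees of freedom), with Benjamini-Hochberg adjustment and a threshold of 0.05. The scripts were tested on simulated data. Sequences are from RefSeq promoter tables (GRCh38.p14) and GENCODE transcripts on GRCh38.

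Genes were named by rule: the CDK11 genes and partners, the 15 largest differences each way among called genes with groups that do not overlap and at least 5 CPM, up to 6 called members of a list by smallest p with the members that define it, transcript usage and the ends and leading genes of runs. CLPB falls outside the rule and was named after its values were seen. The members and lists were chosen with earlier results of these data known. Alternatives were library totals, no filter, fewer libraries, length-scaled TPM, a replicate block, leaving out libraries and DESeq2 1.42.0. Replicate numbers did not pair the samples (correlations of deviations from -0.03 to 0.03). The floor of 3 counts per library was 0.154 CPM in G579S and 0.159 CPM in wild-type, for counting error only. Some genes are not reported here.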

Additional observations from a re-analysis of the deposited data

Results flagged for a closer look

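The genotype difference in A375 differed from the mean of those in Cal51 and MDA-MB-231 in 1271 of 14318 genes (edgeR's quasi-likelihood test of the difference, 8.88%). The genes below are those that the naming rule chose and that passed, so they are only some of the members of their lists that passed, and the count over the whole list stands first. Each value is the A375 difference minus that mean on the log2 scale. A negative value means that the A375 difference lay below the mean of the other lines, which need not be a decrease in A375. CDKN1A was not called in A375 (0.13) and differed by 3.64 in Cal51, where GDF15 differed by 3.30 and ISG15 by 1.31. For genes at or near 0 in a group the value is fitted and is not a bound, and genes at 0 in another line carry little information on that line.

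In the list of neural crest and dedifferentiated melanoma, 0 of 28 passed as higher and 9 as lower, with SOX9 (-5.38), NGFR (-5.21), ANKRD1 (-3.43), EGFR (-1.85), NRG1 (-1.77) and NT5E (-0.53) among the named genes. Of 32 genes in the integrins and adhesion list, 7 passed as higher and 4 as lower, including ALCAM (-1.54), L1CAM (-1.42), SDC4 (-1.23), CLDN1 (2.07) and SDC2 (2.14). The p53 targets list had 1 of 29 higher and 9 lower, among them GDF15 (-2.14), CDKN1A (-1.63), CMBL (-1.57) and PMAIP1 (-1.25). In the list of mesenchymal and matrix, 7 of 45 passed as higher and 8 as lower, with S100A4 (-3.72), CAV1 (-1.28), THBS1 (-0.98), VIM (0.59) and FBLN1 (2.76) among the named genes. Of 30 genes in the TGF-beta and BMP pathway list, 1 passed as higher and 8 as lower, including NOG (-4.68), LTBP2 (-2.58), FSTL1 (-1.72) and SMAD7 (-0.57). The ERK pathway feedback list had 3 of 32 higher and 3 lower, among them EPHA2 (-1.09), HMGA2 (-1.03), CCND1 (-0.80) and TRIB2 (1.25). In the list of ATF4 and unfolded protein response, 5 of 30 passed as higher and 3 as lower, with SLC7A11 (-2.69), HYOU1 (0.85), CRELD2 (1.33) and ASNS (1.34) among the named genes. Of 26 genes in the NF-kB and cytokines list, 2 passed as higher and 6 as lower, including IL1B (-7.71), BIRC3 (-3.05), CXCL8 (-2.34) and CSF1 (-1.23). The hypoxia and glycolysis list had 13 of 32 higher and 0 lower, among them PGK1 (0.52), BNIP3 (0.68), PGAM1 (0.72), GAPDH (0.72) and P4HA1 (1.28). In the list of antigen presentation, 4 of 24 passed as higher and 2 as lower, with HLA-C (1.03) and HLA-B (1.35) among the named genes. Of 27 genes in the apoptosis regulators list, 0 passed as higher and 5 as lower, including BIK (-3.83), BCL2L1 (-1.88) and CFLAR (-1.11). The CDK11 complex and transcription kinases list had 1 of 19 higher and 1 lower, among them CDK11B (-1.34) and CDK11A (0.79). In the list of metallothioneins and NRF2 targets, 1 of 23 passed as higher and 10 as lower, with AKR1C1 (-2.77), HMOX1 (-2.34), GCLM (-1.20), TXNRD1 (-1.03) and AKR1C2 (1.54) among the named genes. Of 48 genes in the receptor tyrosine kinases and ligands list, 2 passed as higher and 10 as lower, including PDGFA (-2.67) and HBEGF (-1.98). The interferon-stimulated genes list had 1 of 41 higher and 16 lower, among them HERC6 (-2.10), RIGI (-1.87), IRF1 (-1.23) and ISG15 (-0.996). In the list of melanocyte differentiation, 4 of 24 passed as higher and 1 as lower, with ERBB3 (1.48) and S100A1 (3.24) among the named genes. Of 27 genes in the cancer-testis antigens list, 0 passed as higher and 1 as lower, including SPANXB1 (-10.56). Named genes in no list that passed were LAMA1 (-12.95), NLRP2 (-10.80), TM4SF18 (-10.17), FOXP1 (-9.78), RELCH (-9.74), PEAR1 (-9.69), CCDC61 (-9.31), SOD3 (3.21), HMCN1 (4.14), ACAN (5.43) and GDF1 (13.93).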

How the results depend on the processing

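The count of 1399 genes was 2494 with only the 8 A375 libraries (1263 genes shared with the 1399), 4707 with only the 4 DMSO libraries (1314 shared), 2124 with DESeq2 (1360 shared, 556 genes with no adjusted p) and 749 to 777 with 1 library left out (736 to 762 shared). In the last case the lone sample of a group is assumed to vary like the other groups. At 2-fold or more the count of 695 was 1058 with the 4 libraries and 477 to 495 with 1 left out. The 1271 genes whose difference stood apart from Cal51 and MDA-MB-231 were 725 to 782 with 1 left out. The 4 genes of transcript usage were 21 with the 8 A375 libraries and 2 to 8 with 1 left out, and the 24 runs were 13 with genes of at least 5 CPM. With the replicate number as a block 1243 genes were called (1207 shared), 1099 stood apart from the other lines, and 3 differed in usage. The numbers do not pair the samples. Library totals moved the median of all genes by -0.03. Direction reversed only in genes that were not called: CCNL1 was 0.23 without wild-type replicate 2 and 0.36 without G579S replicate 2, CCNL2 -0.14 without G579S replicate 2, FN1 2.17 without wild-type replicate 1, and MITF 0.055 with length-scaled TPM, 0.017 with the block, 0.41 without wild-type replicate 2, 0.01 without G579S replicate 2 and 0.0077 with DESeq2. With 1 library left out these genes ranged from -0.68 to 0.36 (CCNL1), -0.14 to 0.33 (CCNL2), -0.35 to 0.41 (MITF) and -2.57 to 2.17 (FN1). Which library or setting caused these changes was not tested further.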
